A study of Mus musculus with 16 samples.

Results

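The expression of 5 genes of ketone body metabolism was followed in cultured mouse hepatocytes: *Acat1*, *Bdh1* and *Bdh2*, which encode enzymes, and *Slc16a1* and *Slc16a7*, which encode transporters. They were taken by symbol from the table of expected counts and are 5 of its 55450 genes. Bulk RNA-seq was done on primary hepatocytes of wild-type mice, kept overnight in medium with serum and insulin, transferrin and selenium. The cells were left untreated or received 10 mM sodium itaconate, a defined mixture of fatty acids and cholesterol diluted 10-fold (lipid), or both (lipid + itaconate). Each of the 4 groups had 4 libraries, named by the replicate letters A to D, and a library held 22346049 to 35512004 expected counts in all (median 27719372). The study asked whether itaconate changes transcription in hepatocytes with and without a lipid load.

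Ketone bodies are made in liver mitochondria from the acetyl-CoA that fatty acid oxidation releases, and they fuel brain, heart and muscle during fasting. Acetyl-CoA is condensed to acetoacetyl-CoA, acetoacetate is made from this in further steps, and a dehydrogenase reduces acetoacetate to β-hydroxybutyrate. Both acids leave and enter cells through monocarboxylate transporters, and the liver exports them because it has little of the transferase that other tissues use to burn them.

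Levels are given as CPM, rounded counts scaled to a common library size with TMM factors. Fold changes are on the log2 scale, from 1 edgeR quasi-likelihood model that held all 16 libraries and had terms for treatment and for replicate letter. Benjamini-Hochberg adjustment ran over the 11675 genes whose mean was 1 CPM or more. All 5 genes passed this filter, and a gene was called at an adjusted p under 0.05. Nothing says that libraries of different letters came from separate animals, so the p values measure the spread between these libraries. The comparisons share groups: untreated cells are the reference for itaconate and for lipid alone, and lipid + itaconate-treated cells enter 2 of the comparisons and the interaction. In bulk RNA, fewer cells of a type and less RNA per cell cannot be told apart.

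The hepatocyte label was checked against marker genes. All 8 hepatocyte markers passed the filter, led by *Alb* at a mean of 33508 CPM, and their summed level was 51670, 39603, 37071 and 39107 CPM in untreated replicates A to D, 52007, 42862, 36981 and 39151 with itaconate, 43854, 36193, 32667 and 34765 with lipid, and 48423, 41250, 28904 and 34169 with lipid + itaconate. Replicate A had the highest sum in every group. Of 8 macrophage markers, 3 were under 1 CPM on average (*Ptprc*, *Timd4* and *Vsig4*), and the most abundant was *Cd68* at 218 CPM. Of 7 stellate cell markers, 6 were under 1 CPM, and *Reln* gave most of the sum at 20.2 CPM. Of 7 endothelial markers, 2 were under 1 CPM, and the highest was *Cdh5* at 5.79 CPM. Of 6 cholangiocyte markers, 4 were under 1 CPM, *Cftr* was at 0 in every library, and *Spp1* was at 530 CPM.

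One library stood apart from its group. Lipid + itaconate replicate B differed from replicates A, C and D of that group by 128, 147 and 106 times counting noise (chi-square per gene), while all other pairs within a group were between 10.0 and 64.5. Without it the same members were called in the comparisons and the interaction that use this group. The members' values without it in the 2 pairwise comparisons are given below, and for other genes it is named where a call was lost.

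Per kilobase of exon, the mean levels over the 16 libraries ran from *Slc16a1* (38.9 CPM per kb, range 34.3 to 43.3) through *Acat1* (8.51, range 6.61 to 11.2), *Bdh1* (3.65, range 2.64 to 4.96) and *Bdh2* (1.37, range 0.895 to 2.12) to *Slc16a7* (0.47, range 0.289 to 0.672). The ranges of neighbours in this order did not overlap. The rarest member, *Slc16a7*, still had 93 to 229 counts per library.

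With lipid alone, 3 of the 5 genes were called, 2 lower (*Bdh1* and *Slc16a7*) and 1 higher (*Bdh2*). Of all genes tested, 5546 (47.5%) were called in this comparison, 2779 (23.8%) higher and 2767 (23.7%) lower. In lipid + itaconate-treated against itaconate-treated cells, 2 of the 5 genes were called, again *Bdh1* and *Slc16a7*, both lower, beside 5483 of all genes (47%), 2740 (23.5%) higher and 2743 (23.5%) lower. The share of members called was close to that background in both. The 5 genes had a median log2 fold change of 0.02 with lipid alone, against 0.00473 over all genes, and one of −0.06 with lipid in the presence of itaconate, against 0.00407 over all genes.

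With itaconate alone, 0 of the 5 genes were called in edgeR, none at an unadjusted p under 0.05, and 0 in DESeq2. Of all genes, 573 (4.91%) were called in edgeR, 229 (1.96%) higher and 344 (2.95%) lower. An unadjusted p under 0.05 was found for 2482 of the 11675 genes, and DESeq2 called 791 (6.91%). In lipid + itaconate-treated against lipid-treated cells the member counts were also 0 in edgeR, 0 at an unadjusted p under 0.05 and 0 in DESeq2. Here 301 of all genes (2.58%) were called in edgeR, 154 (1.32%) higher and 147 (1.26%) lower. An unadjusted p under 0.05 was found for 2025 genes, and DESeq2 called 509 (4.54%). For the interaction of lipid and itaconate, 1 of all genes was called (0.00857%), and it was not a member (*Cxcl10*, a chemokine, named after its value was seen). The members' log2 interaction terms ran from −0.16 (*Bdh2*, adjusted p = 0.853 in the edgeR test) to 0.15 (*Slc16a7*, 0.877).

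*Acat1* (ENSMUSG00000032047.5, chromosome 9 from 53580522 to 53610382, minus strand, GRCm38) encodes the mitochondrial thiolase that joins 2 molecules of acetyl-CoA and also splits acetoacetyl-CoA when ketone bodies are burned. It was at 40.7, 36, 25.2 and 27.5 CPM in untreated replicates A to D, at 42.0, 33.3, 25.1 and 25.6 CPM with itaconate, at 39.5, 34.1, 26.9 and 30.7 CPM with lipid, and at 35.5, 37.4, 24.8 and 27.7 CPM with lipid + itaconate. Replicates A and B were above C and D in every group, and all 4 groups overlapped. Averaged over the 4 treatments, the letters were at 39.4 (A), 35.2 (B), 25.5 (C) and 27.9 CPM (D), so that letters differed more than treatments.

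The log2 fold change of *Acat1* was 0.03 with lipid (95% interval −0.10 to 0.17, adjusted p = 0.693 in the edgeR test), and it was higher in 2 of 4 letters. It was 0.00186 with lipid in the presence of itaconate (−0.13 to 0.14, adjusted p = 0.984), −0.04 with itaconate alone (−0.18 to 0.09, adjusted p = 0.745) and −0.07 with itaconate in lipid-treated cells (−0.21 to 0.06, adjusted p = 0.588). The 4 intervals lay within −0.21 and 0.17. Without lipid + itaconate replicate B the second and the last were −0.06 (adjusted p = 0.52) and −0.13 (0.375).

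*Bdh1* (ENSMUSG00000046598.15, chromosome 16 from 31422280 to 31458901, plus strand) encodes the mitochondrial dehydrogenase that converts acetoacetate and β-hydroxybutyrate into each other. It was at 19.3, 16.3, 12.8 and 12.5 CPM in untreated replicates A to D and at 12.3, 13.8, 11.8 and 10.7 CPM with lipid. Each lipid-treated library was below the untreated library of its letter, although the 2 groups overlapped. *Bdh1* fell by 0.31 on the log2 scale with lipid (standard error 0.0904), lower in 4 of 4 letters, with an adjusted p of 0.0112 in the edgeR test, and the group means were 15.2 ± 3.23 and 12.2 ± 1.27 CPM (SD, n = 4). With the replicate letter left out of the model the adjusted p was 0.12, and it was 0.0574 without untreated replicate A and 0.0555 without lipid replicate A, and over the 23 alternatives it ran from 0.0051 to 0.12.

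In the cells that also had itaconate, *Bdh1* was at 19.0, 16.6, 15.6 and 14.1 CPM with itaconate alone and at 15.4, 15.4, 10.3 and 11.4 CPM with lipid + itaconate. Again every letter was lower with lipid and the groups overlapped, with replicates A and B the highest of the lipid + itaconate group. *Bdh1* fell by 0.32 (standard error 0.0887), with an adjusted p of 0.00746 in the edgeR test. The log2 fold change was −0.37 (adjusted p = 0.00566) when lipid + itaconate replicate B was left out. The call was lost only without the replicate letter (adjusted p = 0.131, range over the alternatives 0.00211 to 0.131). The log2 fold change with itaconate was 0.11 without lipid (95% interval −0.08 to 0.30, adjusted p = 0.485) and 0.10 with lipid (−0.10 to 0.29, adjusted p = 0.625, and 0.88 without lipid + itaconate replicate B). Leaving out lipid replicate A or C took the second value to 0.0128 or 0.146, and leaving out replicate B or C of the lipid + itaconate group took it to 0.0437 or 0.165.

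*Bdh2* (ENSMUSG00000028167.15, chromosome 3 from 135281221 to 135304426, plus strand) encodes a dehydrogenase of the cytosol that also acts on β-hydroxybutyrate. It was at 7.07, 5.37, 4.02 and 4.50 CPM in untreated replicates A to D and at 8.33, 6.32, 6.12 and 5.77 CPM with lipid. Every letter was higher with lipid, and untreated replicate A reached into the range of the lipid-treated libraries. *Bdh2* rose by 0.36 on the log2 scale (standard error 0.126), with an adjusted p of 0.0276 in the edgeR test, from 5.24 ± 1.35 to 6.64 ± 1.15 CPM (SD, n = 4).

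The call of *Bdh2* depended on single libraries. Its adjusted p was 0.281 without the replicate letter, 0.0756, 0.0559 and 0.0566 without untreated replicates B, C and D, and 0.124 and 0.0609 without lipid replicates C and D, and over the 23 alternatives it ran from 0.0161 to 0.281. The direction was the same in all of them. With itaconate alone *Bdh2* was at 6.13, 6.43, 3.80 and 4.61 CPM, and with lipid + itaconate at 9.00, 6.70, 3.96 and 4.87 CPM. All 4 letters were higher with lipid here too, replicate A by the most, but the log2 fold change of 0.20 did not pass the test (95% interval −0.06 to 0.47, adjusted p = 0.201 in edgeR, and 0.336 without lipid + itaconate replicate B). It was 0.11 without itaconate replicate A and 0.09 without lipid + itaconate replicate A. The interaction term of −0.16 (95% interval −0.54 to 0.22, adjusted p = 0.853) does not separate the lipid effects with and without itaconate. The log2 fold change with itaconate was 0.00924 without lipid (adjusted p = 0.976) and −0.15 with lipid (adjusted p = 0.558, and 0.597 without lipid + itaconate replicate B).

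*Slc16a1* (ENSMUSG00000032902.1, chromosome 3 from 104638668 to 104658462, plus strand) encodes MCT1, a widely expressed transporter of lactate, pyruvate and ketone bodies. It was at 166, 172, 173 and 158 CPM in untreated replicates A to D, at 169, 191, 185 and 175 CPM with itaconate, at 152, 153, 192 and 181 CPM with lipid, and at 174, 187, 155 and 174 CPM with lipid + itaconate. The 4 groups overlapped, and in lipid-treated cells replicates A and B were low while C and D were high. The log2 fold change was 0.02 with lipid (95% interval −0.13 to 0.17, adjusted p = 0.851 in the edgeR test), −0.06 with lipid in the presence of itaconate (−0.21 to 0.09, adjusted p = 0.525) and 0.03 with itaconate in lipid-treated cells (−0.13 to 0.18, adjusted p = 0.885). Without lipid + itaconate replicate B the last 2 were −0.10 (adjusted p = 0.291) and −0.015 (0.951).

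With itaconate alone *Slc16a1* was higher in 4 of 4 letters, with a log2 fold change of 0.10 that did not pass the test (95% interval −0.05 to 0.26, adjusted p = 0.422 in edgeR). It passed in 1 of 23 alternatives, a model of the 8 libraries of this comparison (adjusted p = 0.0498, range 0.0498 to 0.674).

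*Slc16a7* (ENSMUSG00000020102.15, chromosome 10 from 125219270 to 125389465, minus strand) encodes MCT2, a transporter with a higher affinity for its substrates than MCT1. It was at 6.18, 5.65, 6.06 and 7.96 CPM in untreated replicates A to D and at 3.78, 4.97, 4.42 and 5.03 CPM with lipid. All lipid-treated libraries were below all untreated ones. *Slc16a7* fell by 0.50 on the log2 scale (standard error 0.139), with an adjusted p of 0.00751 in the edgeR test, a level 1.42-fold lower, and the call held under all 23 alternatives (adjusted p from 0.00111 to 0.0406). This was the largest absolute log2 fold change among the 5 genes in the 4 pairwise comparisons.

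With itaconate *Slc16a7* was at 6.06, 6.39, 6.18 and 6.60 CPM, the narrowest spread of its 4 groups, and with lipid + itaconate at 5.64, 5.59, 3.42 and 5.13 CPM. The groups did not overlap, and lipid + itaconate replicate C was the lowest library. *Slc16a7* fell by 0.35 (standard error 0.136), lower in 4 of 4 letters, with an adjusted p of 0.0431 in the edgeR test, and the adjusted p was 0.0309 without lipid + itaconate replicate B. The call was lost without the replicate letter (adjusted p = 0.0829) and in a model of the 8 libraries (0.0665). Leaving out 1 library also ended it: 0.0501 without untreated replicate C, 0.0681, 0.07, 0.127 and 0.0546 without itaconate replicates A, B, C and D, 0.0522 without lipid replicate D, and 0.166 and 0.118 without lipid + itaconate replicates C and D. Without both lipid + itaconate replicates B and C it was 0.198. Over the 23 alternatives the adjusted p ran from 0.0145 to 0.198, and without lipid + itaconate replicate C the log2 fold change was −0.22. The log2 fold change with itaconate was −0.03 without lipid (adjusted p = 0.917) and 0.12 with lipid (adjusted p = 0.708, and 0.921 without lipid + itaconate replicate B).

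**Figure D1:**
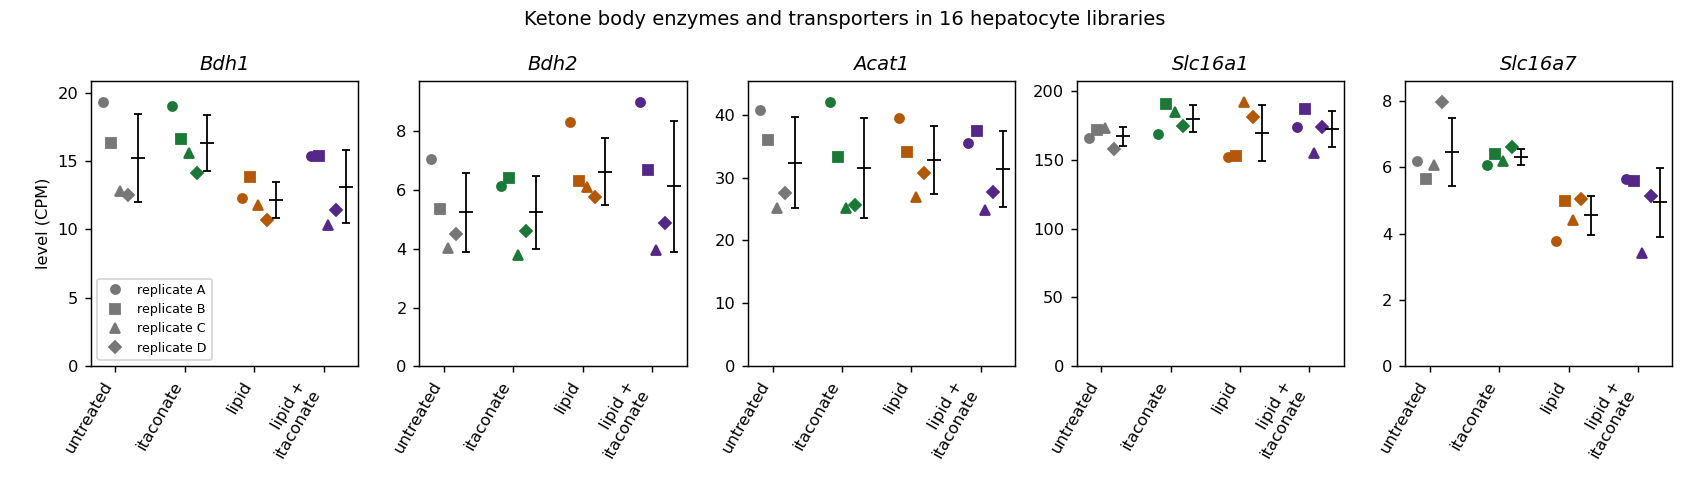
Levels of the 5 genes in CPM (y axis, from 0) in each of the 16 libraries, by treatment (x axis). Each symbol is a library and its shape the replicate letter, and bars show the mean and SD of 4 libraries. *Slc16a7* in lipid-treated cells (3.78 to 5.03 CPM) lies below all untreated libraries, and *Acat1* follows the letters in every group.

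**Figure D2:**
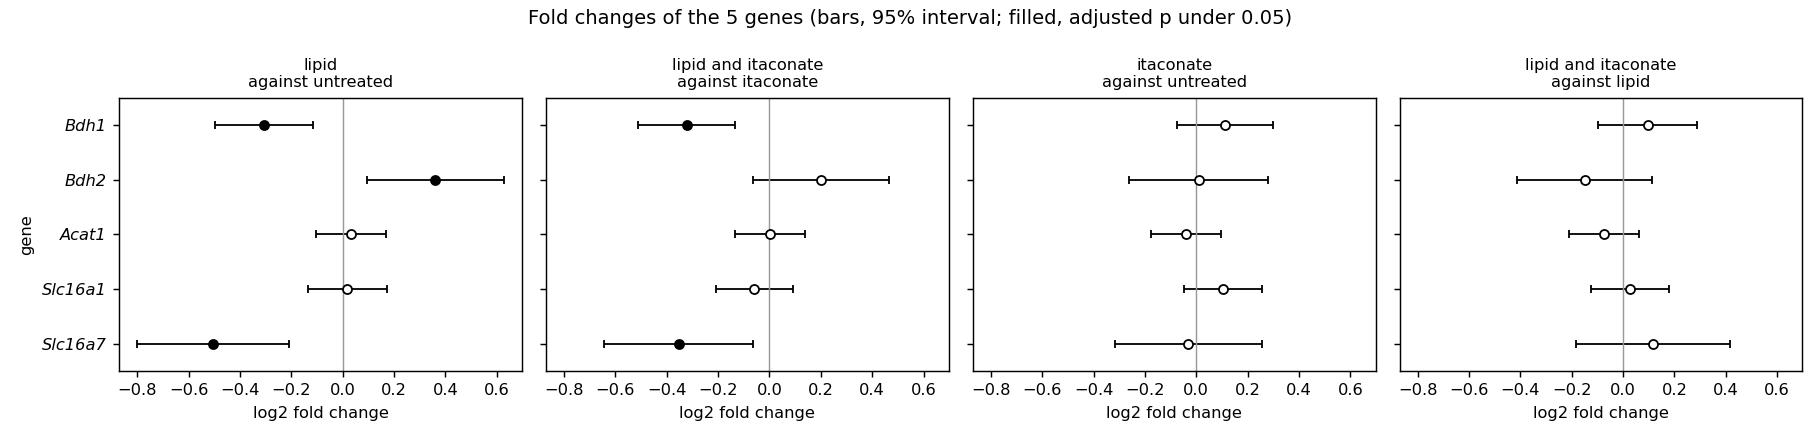
Log2 fold changes (x axis) of the 5 genes (y axis) in the 4 pairwise comparisons, with 95% intervals from edgeR. Filled points have an adjusted p under 0.05: 3 genes with lipid, 2 with lipid in the presence of itaconate and 0 in either itaconate comparison.

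Summed levels of markers of other cells also differed between treatments. The summed level of the 6 cholangiocyte markers was 1171, 893, 727 and 600 CPM in untreated replicates A to D, 1048, 772, 652 and 573 with itaconate, 609, 523, 400 and 336 with lipid, and 646, 480, 488 and 356 with lipid + itaconate, most of it *Spp1*. The 8 macrophage markers summed to 164, 201, 267 and 231 CPM in untreated cells, 141, 185, 221 and 203 with itaconate, 221, 268, 313 and 301 with lipid, and 204, 227, 296 and 307 with lipid + itaconate, most of it *Cd68*. Sums of the first list were lower and of the second higher with lipid in every letter, both with and without itaconate. The macrophage sum follows *Cd68* and not the list as a whole. Of the 5 macrophage markers tested, 1 was called higher and 2 lower with lipid. With lipid in the presence of itaconate, 1 was called higher and 4 lower. Of all genes, 47.5% and 47% were called in these 2 comparisons, the background for each marker count with lipid here and below. Both cholangiocyte markers tested were called lower in the 2 lipid comparisons. Of the 8 hepatocyte markers, 1 was called higher and 2 lower with lipid, and 1 higher and 3 lower with lipid in the presence of itaconate, and their sum was lower with lipid in each letter both times.

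The 7 stellate markers summed to 21.8, 21.8, 22.3 and 24.7 CPM in untreated replicates A to D, 22.1, 24, 23.2 and 26.1 with itaconate, 18.1, 18.7, 20.8 and 21.9 with lipid, and 22.9, 19.1, 16.4 and 22 with lipid + itaconate. The 7 endothelial markers summed to 11.7, 22.7, 14.5 and 17.1 CPM in untreated cells, 11.6, 19.1, 12.6 and 15.3 with itaconate, 13.8, 23.4, 17.3 and 19 with lipid, and 12.2, 21.5, 11.8 and 17.5 with lipid + itaconate. With lipid alone the stellate sum was lower and the endothelial sum higher in 4 of 4 letters, and with lipid in the presence of itaconate each went the same way in 3 of 4. The only stellate marker tested was called lower with lipid in the presence of itaconate, and of 5 endothelial markers tested 1 was called higher and 1 lower with lipid and 1 lower with lipid in the presence of itaconate.

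With itaconate alone the cholangiocyte, macrophage and endothelial sums were lower and the stellate sum higher in 4 of 4 letters. Of the markers tested only 1 was called, a macrophage marker that was lower, beside 4.91% of all genes. With itaconate in lipid-treated cells none was called, beside 2.58% of all genes. Whether the cell types these lists mark had a part in the changes of the genes called in any comparison was not tested.

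The rest of the pathway was taken from 3 lists with 33 genes, 21 of which passed the filter. With lipid, 12 of the 21 were called, 9 higher and 3 lower, and with lipid in the presence of itaconate 12 were called, 8 higher and 4 lower (57.1% each, beside 47.5% and 47% of all genes). With itaconate alone the count was 3 (1 higher, 2 lower), and with itaconate in lipid-treated cells it was 2, both lower (14.3% and 9.52%, beside 4.91% and 2.58% of all genes). The median log2 fold changes of the 21 genes in these comparisons were 0.14, 0.17, 0.01 and −0.03, against 0.00473, 0.00407, −0.00189 and −0.000132 over all genes. For the interaction, 0 of the 21 were called in edgeR, 4 had an unadjusted p under 0.05, and 0 were called in DESeq2. Of all 11675 genes, 1 was called in edgeR and 1004 had an unadjusted p under 0.05. DESeq2 called 36 of 6695 genes (0.538%).

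Among 8 genes of ketone synthesis and use, 6 were tested and 4 were called with lipid (66.7%, beside 47.5% of all genes). *Hmgcs1* and *Acat2*, cytosolic enzymes that feed cholesterol synthesis, fell, *Hmgcs1* by 1.07 (adjusted p = 1.25e-07 in the edgeR test) and *Acat2* by 0.85 (2.34e-06) with lipid, and by 0.81 and 0.63 in the presence of itaconate. Reads of *Acat2* and its near copy *Acat3*, next to it on chromosome 17, may be shared between them, and *Acat3*, which also overlaps *Tcp1* on the other strand, had a log2 fold change with lipid of −0.06 (adjusted p = 0.617). *Aacs*, the cytosolic synthetase that activates acetoacetate for lipid synthesis, rose by 0.60 with lipid (adjusted p = 0.000173) and by 0.33 with lipid in the presence of itaconate (0.0145). The second call was lost without itaconate replicate D (adjusted p = 0.0532) and lipid + itaconate replicates A (0.0578) or B (0.053), with a range over the alternatives of 7.55e-08 to 0.0578.

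*Oxct1*, the transferase with which other tissues use ketone bodies, was at 0.73 to 1.79 CPM over all libraries (18 to 51 counts), and its log2 fold change of −0.54 with lipid did not pass the test (adjusted p = 0.0717 in edgeR). *Oxct2b* rose by 0.42 with lipid (adjusted p = 0.0488), but 18 of 23 alternatives put it over 0.05 (range 0.034 to 0.174), and it shares sequence with *Oxct2a* and lies inside *Bmp8b*. *Hmgcll1* was at 0 in every library and *Oxct2a* had at most 5 counts. With itaconate alone *Hmgcs1* fell by 0.39 (adjusted p = 0.0149). That call was lost without the replicate letter (adjusted p = 0.194), without untreated replicates A (0.063) or B (0.0634) and without itaconate replicates C (0.072) or D (0.0586), and the range was 2.54e-10 to 0.194.

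Of 15 other monocarboxylate transporters and partner proteins, 7 were tested. With lipid, 4 rose and 1 fell (71.4% called, beside 47.5% of all genes, 23.8% higher and 23.7% lower). *Slc16a6* encodes MCT7, known for carrying β-hydroxybutyrate out of liver cells. It was at 35.5, 34.1, 27.7 and 22.8 CPM in untreated replicates A to D and at 54.0, 43.8, 46.7 and 38.3 CPM with lipid. All lipid-treated libraries were above all untreated ones, and *Slc16a6* rose by 0.62 (adjusted p = 1.78e-06 in the edgeR test).

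With itaconate *Slc16a6* was at 35.1, 33.1, 29.9 and 22.8 CPM, and with lipid + itaconate at 45.0, 39.3, 35.6 and 33.2 CPM, a rise of 0.35 (adjusted p = 0.000369 in edgeR, and 0.0857 without the replicate letter). Each letter was lower in lipid + itaconate than in lipid-treated cells, and *Slc16a6* fell by 0.26 in that comparison (adjusted p = 0.0409), where 12 of 23 alternatives put it over 0.05. These were the models without the replicate letter (adjusted p = 0.61) and of the 8 libraries (0.204), and those without untreated replicate A (0.0558), itaconate replicates A (0.0528), B (0.0505) or C (0.0544), lipid replicates A (0.0939), C (0.109) or D (0.13), lipid + itaconate replicates A (0.12) or B (0.107), or both lipid + itaconate replicates B and C (0.201), over a range of 0.00766 to 0.61. The reads of *Slc16a6* could in part belong to *Arsg* and *Amz2*, which overlap it on the other strand, since the strand setting of the counting was not given in the sources used here. The libraries themselves were made with a stranded kit, so this would matter only if the counting took no account of strand, and the same holds for *Acat3* and *Sirt3*.

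*Slc16a11* and *Slc16a13*, neighbours on chromosome 11 in opposite orientations, rose by 1.03 (adjusted p = 2.7e-06 in the edgeR test) and 0.95 (0.00052) with lipid and by 0.83 and 1.14 in the presence of itaconate. *Slc16a13* is a low-abundance gene, with 24 to 79 counts per library. *Slc16a12*, a creatine transporter, rose by 0.60 with lipid (adjusted p = 0.000216), although the groups overlapped. Its log2 fold change with lipid in the presence of itaconate was 0.15 (adjusted p = 0.232). The interaction term of −0.44 did not pass the edgeR test (unadjusted p = 0.00736, adjusted p = 0.385).

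*Bsg*, the chaperone that brings MCT1 to the plasma membrane, was the most abundant of the 21 genes per length, at a mean of 2028 CPM. It fell by 0.34 with lipid (adjusted p = 0.0055 in the edgeR test) and by 0.23 with lipid in the presence of itaconate (0.0409), where 1 of 4 letters was higher. The second call was lost in the model without the replicate letter (adjusted p = 0.0589), in that of the 8 libraries (0.0526), and without untreated replicate D (0.0528), itaconate replicates A (0.0501), B (0.0818), C (0.0875) or D (0.0826), lipid + itaconate replicates C (0.148) or D (0.137), or both lipid + itaconate replicates B and C (0.103), over a range of 4.61e-05 to 0.148. Without lipid + itaconate replicate C its log2 fold change was −0.13. The other 8 genes of this list were under the filter.

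Of 10 regulators and sensors of ketogenesis, 8 were tested, and 3 rose with lipid. That is 37.5% called, beside 47.5% of all genes, 23.8% higher. *Ppara*, the receptor that switches on ketogenic genes in fasting, was at 3.80 to 9.83 CPM, and its log2 fold change of 0.31 with lipid did not pass the test (95% interval −0.03 to 0.65, adjusted p = 0.126 in edgeR). *Creb3l3*, a liver transcription factor that works with PPARα in fasting, was at 101, 113, 105 and 93.3 CPM in untreated replicates A to D and at 215, 243, 211 and 191 CPM with lipid. The groups lay far apart, and *Creb3l3* rose by 1.06 (adjusted p = 3.1e-11).

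*Creb3l3* was lower with itaconate in every letter. It was at 82.7, 95.5, 86.4 and 73.8 CPM with itaconate, a fall by 0.29 against untreated cells (adjusted p = 0.000343 in the edgeR test), and at 167, 180, 159 and 146 CPM with lipid + itaconate, a fall by 0.40 against lipid-treated cells (6.77e-05). Both calls were lost in the model without the replicate letter (adjusted p = 0.178 and 0.12, the highest of their alternatives) and held in the others. The lipid + itaconate libraries lay below all lipid-treated ones and above all untreated ones. With lipid in the presence of itaconate it rose by 0.95.

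*Hcar2*, a receptor for β-hydroxybutyrate, rose by 0.52 with lipid (adjusted p = 0.00204 in the edgeR test) and by 0.38 with lipid in the presence of itaconate (0.0143, and 0.0654 without lipid + itaconate replicate B). *Rptor*, a subunit of mTORC1, rose by 0.30 and 0.32. In the presence of itaconate *Foxa2* also rose with lipid, by 0.38, and *Nr1h4*, the bile acid receptor, fell by 0.41 (adjusted p = 0.00401, and 0.137 without the replicate letter). With lipid alone the log2 fold changes were 0.13 for *Foxa2* (adjusted p = 0.279 in the edgeR test) and −0.12 for *Nr1h4* (0.366). Their interaction terms of 0.25 (adjusted p = 0.629) and −0.29 (0.594) do not separate the lipid effects with and without itaconate. *Sirt3*, a mitochondrial deacetylase, rose by 0.36 with itaconate alone (adjusted p = 0.0328). That call was lost without the replicate letter (adjusted p = 0.119), without untreated replicates A (0.0522), B (0.109) or D (0.119) and without itaconate replicates B (0.109), C (0.0718) or D (0.121), over a range of 0.00313 to 0.121, and *Sirt3* overlaps *Ric8a* and *Psmd13* on the other strand.

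**Figure D3:**
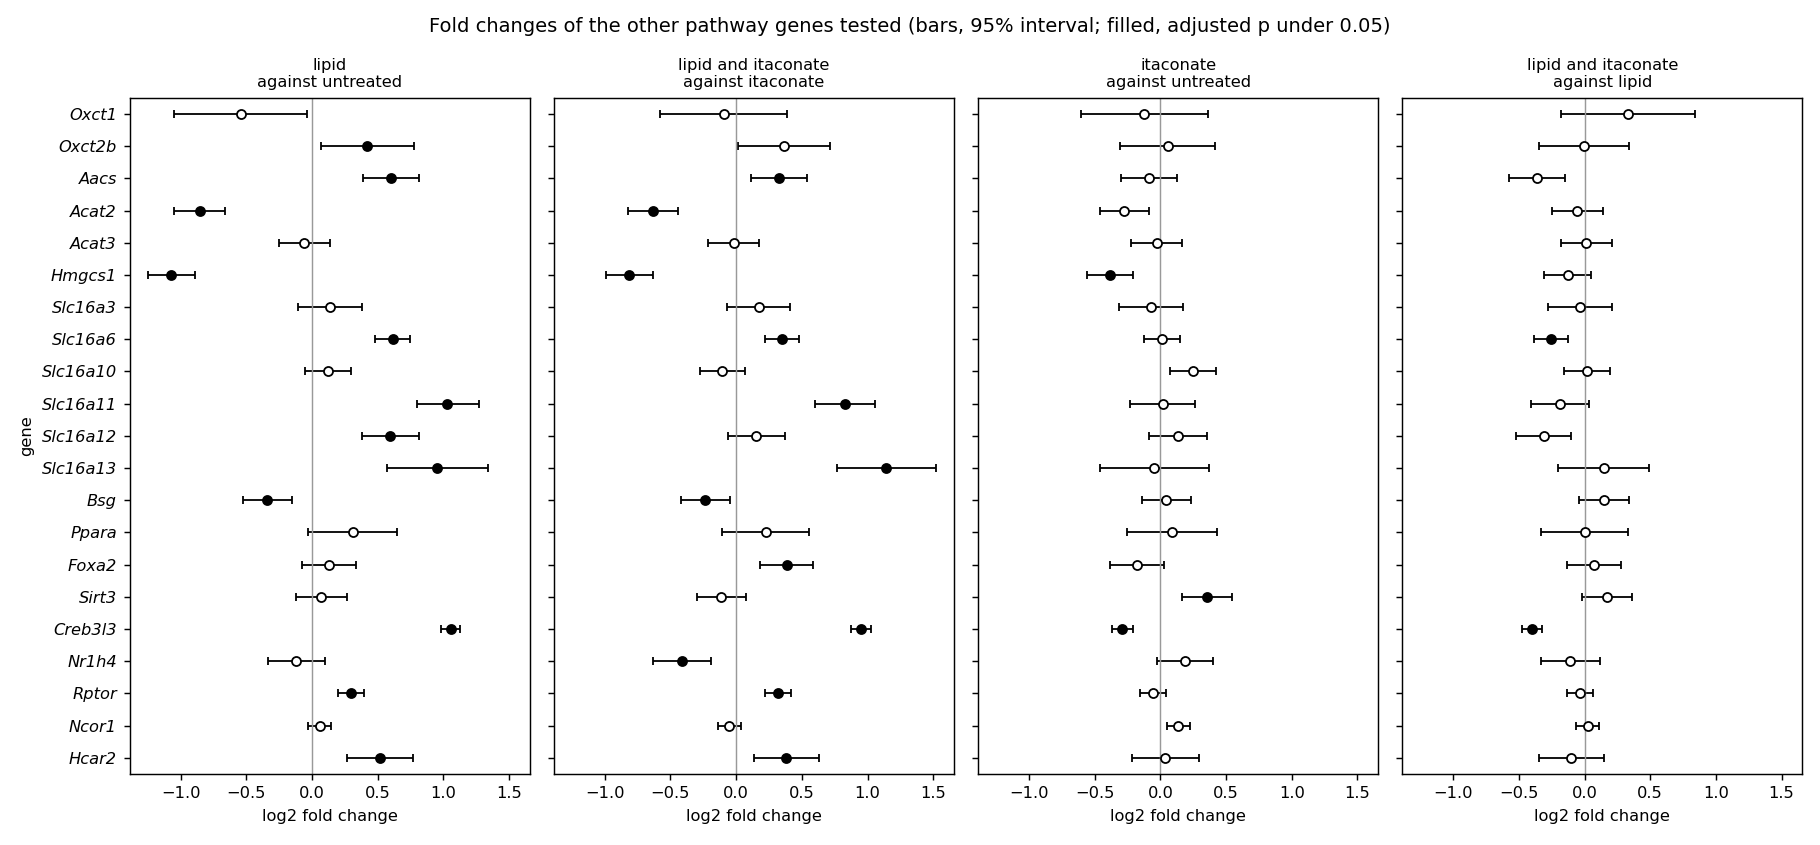
Log2 fold changes (x axis) of the 21 other pathway genes tested (y axis) in the 4 pairwise comparisons, with 95% intervals from edgeR. Filled points have an adjusted p under 0.05, which 12 genes had with lipid, 12 with lipid in the presence of itaconate, 3 with itaconate alone and 2 with itaconate in lipid-treated cells.

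Patterns were compared over the 16 libraries as Pearson's r of log2 CPM after the mean of each replicate letter had been taken out, as a description. The treatments are part of these values. The genes most like *Acat1* were *Fam129c* (r = 0.80), *Srrm1* (0.80) and *Sqle* (0.79), and those most like *Bdh1* were *Tmem170b* (0.96), *Mnt* (0.96) and *Mllt10* (0.95). For *Bdh2* they were *Amz1* (0.94), *Gna12* (0.94) and *Snx16* (0.93), for *Slc16a1* *Eaf1* (0.93), *Hccs* (0.91) and *Fbxw11* (0.90), and for *Slc16a7* *Afm* (0.97), *Hrg* (0.95) and *Ces2a* (0.95). Among the members themselves, *Bdh1* and *Slc16a7* were the most alike (r = 0.86), and *Bdh1* and *Bdh2* the most unlike (−0.52).

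The start regions of the 2 dehydrogenase genes that moved in different directions with lipid, and that of *Slc16a1*, the most abundant member, are shown for comparison. RefSeq's table of start regions (GRCm38.p6) matched 3 of the 5 genes, *Bdh1* with 2 starts and *Bdh2* and *Slc16a1* with 1 each. The 250 bases before each start were searched on both strands for the nuclear receptor half-site AGGTCA, the E-box CACGTG, the CCAAT box, the GC box GGGCGG and the TATA box TATAAA, which 14%, 6.02%, 33.8%, 32.7% and 12.4% of all 32851 such windows hold. A repeat of the half-site after 1 base was in 0.0335% of windows. The *Bdh1* windows held none of these letters, *Bdh2* held 1 CCAAT box (on the minus strand), and *Slc16a1* held 1 E-box and 1 GC box, which are in capitals. The windows are chr16:31422047-31422296 for the first start of *Bdh1*, chr3:135280971-135281220 for *Bdh2* and chr3:104638414-104638663 for *Slc16a1*, all on the plus strand.
Bdh1: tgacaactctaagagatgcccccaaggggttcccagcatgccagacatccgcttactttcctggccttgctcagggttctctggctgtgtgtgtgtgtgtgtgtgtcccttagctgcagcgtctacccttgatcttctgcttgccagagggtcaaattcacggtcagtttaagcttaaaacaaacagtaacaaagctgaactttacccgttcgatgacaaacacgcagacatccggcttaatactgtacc
Bdh2: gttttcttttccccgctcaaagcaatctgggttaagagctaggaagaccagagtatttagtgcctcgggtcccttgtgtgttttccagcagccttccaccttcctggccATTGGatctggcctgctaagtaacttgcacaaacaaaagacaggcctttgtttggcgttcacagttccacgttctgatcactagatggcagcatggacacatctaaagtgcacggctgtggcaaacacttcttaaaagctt
Slc16a1: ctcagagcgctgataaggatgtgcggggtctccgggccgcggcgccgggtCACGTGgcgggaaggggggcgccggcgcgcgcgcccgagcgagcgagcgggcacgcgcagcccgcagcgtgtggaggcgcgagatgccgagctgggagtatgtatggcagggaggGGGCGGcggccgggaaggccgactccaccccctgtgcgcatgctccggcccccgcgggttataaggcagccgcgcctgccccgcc
The *Slc16a1* window is 76.4% G and C with 37 CG pairs, against a median of 52.4% and 6 pairs over all windows, while the windows of the first start of *Bdh1* (49.6%, 7 pairs) and of *Bdh2* (48%, 5 pairs) were a little below that median in G and C. The window of the second *Bdh1* start was above it (60.8%, 9 pairs).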

How the data were processed

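The authors trimmed reads with Cutadapt 1.18, aligned them to mm10 with STAR 2.7.0f and deposited expected counts per gene from RSEM 1.3.1. The expected counts carry no normalization, and 5.41% of the values were not whole. They were rounded here, and the models named beside the results were run with edgeR 4.0.16 and DESeq2 1.42.0 under R 4.3.3. All 55450 identifiers matched GENCODE mouse release 21, the source of positions and exon lengths. Log2 CPM used a prior count of 0.5.

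After group means were taken out, libraries of different groups were correlated across genes. Those that share a letter in the sample labels had an r from 0.144 to 0.469 (24 pairs, median 0.263). Those of different letters had an r from −0.436 to 0.178 (72 pairs, median −0.114), so the ranges overlapped slightly. Libraries of a letter were more alike by the median, and the letter was kept in the model. No 2 libraries of a group differed by as little as counting noise.

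The genes named are the 5 members, 6 pathway genes in any case (*Oxct1*, *Aacs*, *Hmgcs1*, *Acat2*, *Bsg*, *Ppara*), every other list gene with an adjusted p under 0.05 in at least 1 of the 5 comparisons, and the 3 genes most like each member, without those lacking a proper symbol. *Acat3*, *Hmgcll1* and *Oxct2a* were named after their values were seen. Some genes of the planned lists are not reported here, and the list counts leave them out. Members and lists were chosen with earlier results of these data known.

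Alternatives were no replicate block, RLE scaling, filterByExpr, no filter, only the 8 libraries compared, DESeq2 and each library left out. The fit was tried on simulated data for lipid against untreated only, without differences between letters. It called 90 of 100 genes changed 1.5-fold, 100 of 100 changed 2-fold and 6 of 11475 unchanged genes. The itaconate comparisons, the interaction and the effect of the letter were not simulated.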

Additional observations from a re-analysis of the deposited data

How the results depend on the processing

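No alternative turned the direction of a called member or pathway gene. Without the replicate block, 1 member was called with lipid and 0 with lipid in the presence of itaconate, against 3 and 2 with it. Of all genes, 4149 (35.5%) and 3990 (34.2%) were called there without the block. The pathway lists then gave 0 genes in both itaconate comparisons, against 3 and 2 with the block. In these comparisons only 23 (0.197%) and 9 (0.0771%) of all genes were called without the block. In the model of the 8 libraries compared, 1 member was called with itaconate alone and 1 with lipid in the presence of itaconate. The pathway counts were 6 with itaconate alone and 1 with itaconate in lipid-treated cells. Of all genes, this model called 1859 (15.9%) with itaconate alone and 4793 (41.1%) with lipid in the presence of itaconate. With itaconate in lipid-treated cells it called 14 (0.12%). With itaconate alone the pathway count was 5 with no filter, beside 1091 of all genes (4.34%), and 6 with DESeq2, beside 791 (6.91%). For the interaction it was 1 with no filter, beside 231 of all genes (0.918%). With 1 library left out, 1 to 2 members were called with lipid in the presence of itaconate, beside 4538 to 5568 of all genes. The pathway counts were then 1 to 6 with itaconate alone and 1 to 3 with itaconate in lipid-treated cells, beside 149 to 1051 and 59 to 891. Without lipid + itaconate replicates B and C, a choice made after seeing the data, these 3 counts were 1, 6 and 1, beside 4495, 1154 and 234. With fewer libraries each fit also has less information, and the cause of the other differences was not tested.

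Genes called with itaconate alone (573) numbered 23 without the replicate block, 1859 with the 8 libraries, 1091 with no filter, 1154 without both libraries and 149 to 1051 with 1 library left out. With itaconate in lipid-treated cells (301) they numbered 9, 14, 725 and, with DESeq2, 509, and 59 to 891 with 1 library left out. For the interaction (1) they numbered 0 without the block or without both libraries, 231 with no filter, 36 with DESeq2, 2 with RLE, 2 with filterByExpr and 0 to 8 with 1 library left out.

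Log2 fold changes near 0 that did not pass the test also changed sign. That of *Acat1* with lipid in the presence of itaconate was −0.00637 without the replicate block, −0.00968 with RLE, −0.00113 with filterByExpr, −0.00985 with DESeq2, −0.0772 without both libraries and −0.0552 to 0.0573 with 1 library left out. The *Bdh1* interaction was 0.012 without the block, 0.00984 without both libraries and −0.0999 to 0.0547 with 1 left out. With 1 library left out, values with itaconate alone ran from −0.0783 to 0.0915 (*Bdh2*) and −0.127 to 0.0483 (*Slc16a7*), and with itaconate in lipid-treated cells from −0.0449 to 0.105 (*Slc16a1*) and −0.00106 to 0.252 (*Slc16a7*). With lipid they ran from −0.0123 to 0.0741 (*Acat1*) and −0.0505 to 0.0896 (*Slc16a1*), for *Slc16a1* with lipid in the presence of itaconate from −0.102 to 0.0179, and for the interaction from −0.0915 to 0.02 (*Acat1*) and −0.148 to 0.000731 (*Slc16a1*). Others kept their sign but moved by over 1.5 times. With itaconate alone they ran from 0.0656 to 0.183 (*Bdh1*), −0.0989 to −0.00192 (*Acat1*) and 0.0686 to 0.13 (*Slc16a1*), with itaconate in lipid-treated cells from −0.256 to −0.0393 (*Bdh2*) and −0.13 to −0.0202 (*Acat1*), and for the interaction from −0.269 to −0.0463 (*Bdh2*) and 0.0247 to 0.284 (*Slc16a7*).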
